A study of Mus musculus with 9 samples.

Results

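The epigonadal white adipose tissue (eWAT) of female mice lies against the ovary, oviduct and uterine horn, and 3 of the 9 eWAT libraries in this study carried abundant ovarian transcripts. These 3 libraries, untreated 10, EV 36 and EV 41, were chosen by their own measured level of Inha, which encodes the alpha subunit of the hormone inhibin. A library was placed among the ovary-containing ones above 100 CPM of Inha and among the others below 10 CPM, with CPM (counts per 1e+06 counts) taken over the library's total. The 6 others were untreated 4, untreated 7, EV 37 and tumour bearing 17, 21 and 22. The contrast between these classes describes tissue content and not a treatment.

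All 9 mice were female NSG mice, an immunodeficient strain, labelled wild type and sampled at week 12, and each library came from 1 mouse. Untreated mice were the tumour-free controls, EV mice received 10 tail vein injections of extracellular vesicles from MDA-MB-231 cells over 5 weeks, and tumour-bearing mice carried an orthotopic tumour of the same line. That line is of human origin and models triple-negative breast cancer. The ovary-containing class held 1 untreated mouse, 2 EV mice and 0 tumour-bearing mice, so class and treatment were partly bound together.

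The ovary holds follicles, in which an oocyte is enclosed by granulosa cells and, later, by an outer layer of theca cells. Theca cells make androgens from cholesterol, granulosa cells convert them to oestrogens and secrete inhibin and anti-Müllerian hormone, and after ovulation the remaining follicle becomes the corpus luteum, which makes progesterone. The oviduct that receives the egg is lined by ciliated and secretory cells. Adipocytes store triglyceride, and the fat pad around them holds vessels, macrophages, fibroblasts and a mesothelial covering.

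Libraries held 20097743 to 26149300 counts. Genes with at least some counts numbered 24173 to 24421 in the ovary-containing libraries and 20327 to 22972 in the others. On the first principal component of log2 CPM, with 55.5% of the variance, the ovary-containing libraries lay at 128 to 143, untreated 7 at 40.9 and the remaining 5 at -105 to -74.0. The second component, with 21.1%, set untreated 7 at 174.9 apart from the other libraries. The deposited columns named TPM carried a shared decimal remainder that sorted the libraries into 3 sets, and all ovary-containing libraries fell in the same set as untreated 4, EV 37 and tumour bearing 21. No label names a batch.

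**Figure D1:**
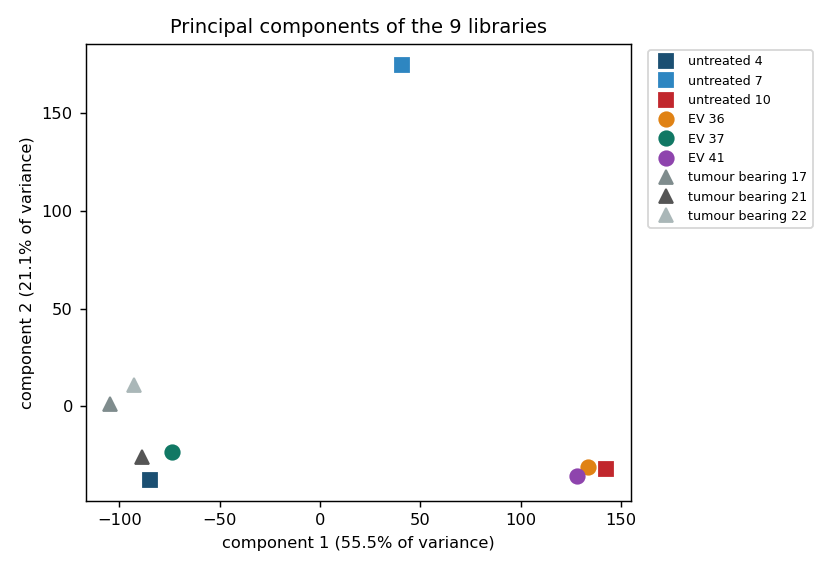
Principal components of log2 CPM over 17822 genes, with component 1 (55.5% of the variance) against component 2 (21.1%), 1 point per library, squares untreated, circles EV, triangles tumour bearing. The 3 ovary-containing libraries lie together at 128 to 143 on component 1, and untreated 7 lies alone at 174.9 on component 2.

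The values that made the choice are given here as a description only. Inha (ENSMUSG00000032968) was at 1827 CPM in untreated 10, 1790 CPM in EV 36 and 1718 CPM in EV 41. The lowest library inside the class was thus EV 41, and the nearest library outside it was untreated 7, at 4.59 CPM. Cyp11a1 (ENSMUSG00000032323), which cuts the side chain of cholesterol at the first step towards steroids, stood at 4454, 924 and 1851 CPM, against 0.0765 to 1.86 CPM in the others. Amh (ENSMUSG00000035262), the anti-Müllerian hormone of growing follicles, was at 166.7, 224.1 and 186.0 CPM, against 0.0455 to 0.229 CPM. Neither gene overlapped between the classes. From here on, levels are CPM scaled by TMM factors, which correct for libraries that spend many counts on few genes.

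By the edgeR quasi-likelihood test, 2897 of 17822 genes were called higher in the ovary-containing libraries (16.3%) and 1833 lower (10.3%), at a Benjamini-Hochberg adjusted p under 0.05. Levels did not overlap between the classes for 3803 genes in the higher direction (21.3%) and 1879 in the lower (10.5%). Because Inha of these same libraries set the classes, these calls describe which transcripts went along with it and are not tests, and nothing is read from a list's share of calls against these percentages. In bulk tissue, fewer cells of a type cannot be told apart from less RNA per cell. Without untreated 7 the counts were 4916 higher and 3985 lower, and without untreated 10 they were 1922 and 425. Without EV 36 or EV 41 the lower calls numbered 560 and 547. Within the set of 6 libraries that shared the decimal remainder, 4995 genes were called higher and 4305 lower. Without any scaling factor the median of all genes rose from -0.03 to 0.46 on the log2 scale, and 5233 genes were called higher against 503 lower (91.2% higher, against 61.2% with TMM).

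**Figure D2:**
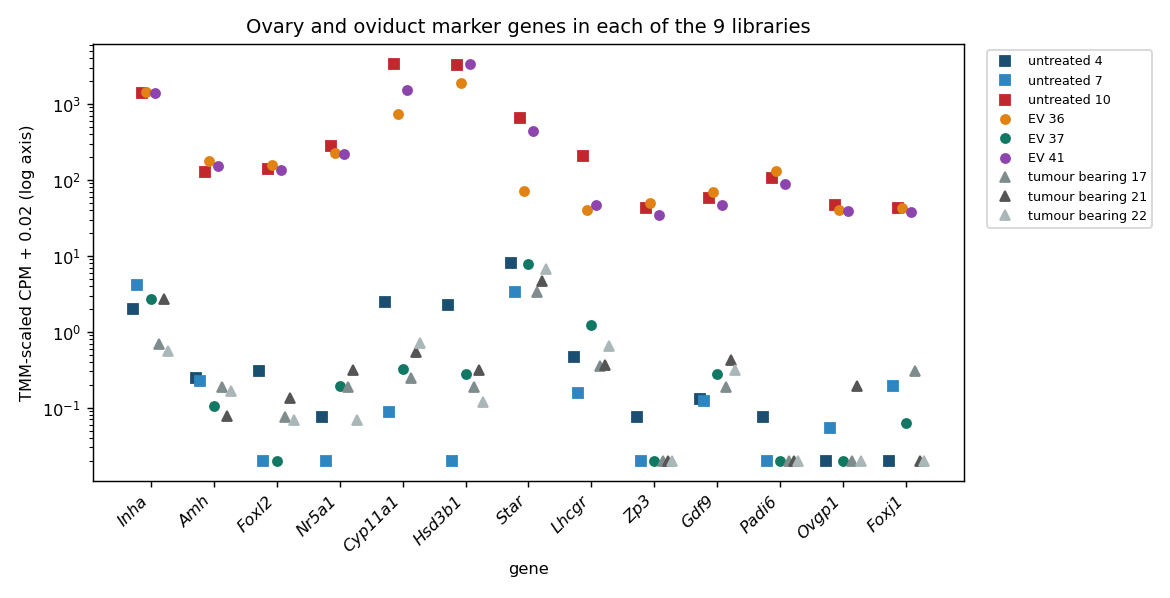
TMM-scaled CPM plus 0.02 on a log axis for 13 ovary and oviduct genes, 1 point per library and gene, squares untreated, circles EV, triangles tumour bearing. For every gene shown, the 3 ovary-containing libraries lie above the 6 others, with Star and Cyp11a1 spread over a wider range among the 3 than Inha or Foxl2.

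Oocyte transcripts were present in all 3 ovary-containing libraries. Of 28 genes in the oocyte list, 27 passed the filter on low counts and 27 were called higher, with a median log2 fold change of 8.15, or 7.68 with the 4 genes that had 0 counts in all others held at a bound. The filter admitted most of these genes only through the 3 libraries where they are high, so the count is a description. The remaining gene, Oosp2, had 33 counts over the ovary-containing libraries and 0 over the others. Zp3, the sperm-binding protein of the egg coat, was at 42.9 CPM in untreated 10, 49.4 CPM in EV 36 and 34.2 CPM in EV 41, with 1 count in all the others together. That gave a ratio of 5319, with a 95% exact interval of 954 to 210163 that covers counting error only.

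Genes of the egg's cytoplasm followed the same order. Padi6, which builds the cytoplasmic lattices of the egg, was at 106, 132 and 88.4 CPM across untreated 10, EV 36 and EV 41, with 1 count in the others together. Nlrp5, part of the maternal complex beneath the egg membrane, was at 56.1, 68.1 and 47.3 CPM. Gdf9, the growth factor by which the oocyte acts on granulosa cells, was at 58.0, 69.1 and 47.2 CPM, against 0.104 to 0.405 CPM. EV 36 was the highest of the 3 libraries and EV 41 the lowest for most of the list: EV 36 ranked first for 24 of the 25 members at a mean of at least 1 CPM, and EV 41 ranked last for 23. The median ratio between the highest and lowest of the 3 libraries was 1.44 among the 20 members at a mean of at least 5 CPM, beside 1.19 over the 12416 genes at that level.

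The largest fold changes included genes with close copies, such as Khdc1b and Oas1e, for which counts can be divided between copies. Khdc1b was at 30.8, 38.9 and 26.7 CPM across untreated 10, EV 36 and EV 41, with 0 counts in all others, which with 3 counts per library taken as the floor is at least 185-fold higher. Oas1e was at 14.7, 19.3 and 14.04 CPM and at 0 in all others, at least 92.3-fold higher. Astl, the egg protease ovastacin that hardens the egg coat after fertilization, was at 16.99, 22.5 and 15.1 CPM and likewise at 0, at least 104.8-fold higher. Fbxw24, an F-box protein gene, was at 21.7, 26.9 and 16.3 CPM and at 0 elsewhere, at least 125-fold higher. Nlrp14 was at 69.5, 86.4 and 63.0 CPM and Zp2, another egg coat protein, at 67.9, 80.9 and 55.8 CPM. Serpina5, a serine protease inhibitor, at 126, 108 and 83.8 CPM, and Hao2, a peroxisomal hydroxyacid oxidase, at 62.8, 66.3 and 103 CPM, were also among the 15 largest; they are in none of the lists and had other orders among the 3 libraries.

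Granulosa cell genes were mostly higher, with Cyp19a1 the least even of them among the 3 libraries, at a highest-to-lowest ratio of 13.95 against a list median of 1.36. Of 19 listed genes, 15 were called higher and 1 lower, with a median log2 fold change of 4.10. The lower gene was Kitl, and 2 were called lower without untreated 7. Inha, which set the classes, and the marker Amh are members of this list and of the inhibin, activin and BMP signalling list. Cyp11a1, the remaining marker, is a member of the steroid synthesis, luteal and theca lists. Calls of these genes are no support for a list. Foxl2 and Cyp19a1, near 0 in the others, passed the filter only through the 3 libraries where they are high. Other lists hold such genes too, among them Nr5a1, Foxj1 and Ovgp1. Foxl2, the transcription factor that maintains granulosa identity, was at 139, 155 and 135 CPM in untreated 10, EV 36 and EV 41, against 0 to 0.280 CPM, a log2 fold change of 10.81 ± 0.65 (SE, n = 3 and 6). Fshr, the receptor of follicle-stimulating hormone, was at 14.8, 16.3 and 10.2 CPM, against 0.392 to 1.008 CPM. Hsd17b1, which makes oestradiol from oestrone, was at 58.8, 72.6 and 82.9 CPM, against 0 to 0.168 CPM. The classes did not overlap for any of these.

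The inhibin and activin subunits differed in how even they were. Inha had a highest-to-lowest ratio of 1.03 among the 3 libraries, and Amh one of 1.41. Inhbb, the beta B subunit, was at 223, 254 and 291 CPM, against 15.4 to 59.9 CPM. Inhba, the beta A subunit, was at 254 CPM in untreated 10 but at 82.3 CPM in EV 36 and at 89.2 CPM in EV 41, with 1.33 to 3.02 CPM in the others. Of the 28 genes of inhibin, activin and BMP signalling, 10 were called higher and 2 lower, beside 16.3% and 10.3% of all genes. The lower calls were 1 without untreated 10, EV 36 or EV 41 and 3 without untreated 7. Of the signal transducers, Smad4 was at 73.4, 82.1 and 79.0 CPM, against 62.3 to 141 CPM. Kitl, the ligand that granulosa cells present to the oocyte, was the only granulosa gene called lower, at 17.4, 21.5 and 18.7 CPM against 41.7 to 69.0 CPM.

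Transcription factors of the gonad were mostly higher too, with 12 of 17 tested genes called higher, 0 lower and a median log2 fold change of 1.94. Foxl2 and Nr5a2 are members of the granulosa list as well. Genes called higher numbered 15 without untreated 7, 12 without EV 37, 9 without EV 36 or EV 41, and 10 without any other single library. They numbered 9 with the treatment group as a term and 17 in the 6 libraries that shared the decimal remainder. Nr5a1, the nuclear receptor SF-1 that drives steroid enzyme genes, was at 280, 228 and 218 CPM, against 0 to 0.289 CPM, a log2 fold change of 10.97 ± 0.60 (SE). Nr5a2, its relative LRH-1, was at 143, 175 and 141 CPM, against 1.10 to 3.61 CPM, and Gata4 at 173, 137 and 141 CPM, against 0.488 to 4.94 CPM. Dmrt1, a factor of the male gonad, had 0 counts in every library.

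Some steroid synthesis genes differed widely among the 3 ovary-containing libraries. The median highest-to-lowest ratio was 1.79 over the 22 members at a mean of at least 5 CPM, beside 2.27 over 24 adipocyte genes. Of 23 tested genes, 12 were called higher and 4 lower, with a median log2 fold change of 1.12, or 2.80 without untreated 7. Star, which moves cholesterol into the mitochondrion, was at 661 CPM in untreated 10, 70.9 CPM in EV 36 and 445 CPM in EV 41, while the others held 3.28 to 8.01 CPM. Hsd3b1, which makes progesterone from pregnenolone, was at 3282, 1882 and 3374 CPM, against 0 to 2.24 CPM. Cyp17a1, the theca enzyme that turns progestins into androgens, was at 467, 119 and 6.98 CPM, a highest-to-lowest ratio of 66.9, against 0 to 0.694 CPM. Even the low value in EV 41 lay above all 6 others.

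Cyp19a1, the aromatase that makes oestrogens from androgens, was at 52.9 CPM in untreated 10 and at 3.79 and 4.002 CPM in EV 36 and EV 41, with 0 counts in the others, at least 117-fold higher against the floor. Fdxr and Fdx1, which carry electrons to the mitochondrial P450 enzymes, were at 242, 142 and 246 CPM and at 427, 114 and 258 CPM. In the others these were at 7.77 to 16.3 CPM and 27.7 to 51.8 CPM. Soat1, which esterifies cholesterol for storage, had the lowest highest-to-lowest ratio of the steroid genes called higher, 1.12, at 411, 368 and 374 CPM, against 14.7 to 25.2 CPM. The 4 lower genes were Tspo, Por, Hsd17b4 and Hsd17b12, and their levels in untreated 7 overlapped with the ovary-containing class. Tspo, a cholesterol-binding protein of the outer mitochondrial membrane, was at 54.4, 84.0 and 86.3 CPM, against 78.4 CPM in untreated 7 and 247 to 326 CPM in the other 5. Leaving out single libraries moved the 4 lower calls to between 0, without untreated 10 or without EV 36, and 5, without untreated 7. They numbered 1 without EV 41 and 2 without untreated 4, EV 37 or any tumour-bearing library.

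The promoters of the steroid synthesis genes called higher, with Inha and Amh, were searched for CAAGGTC or CAAGGCC on both strands, sequences of the kind bound by SF-1, within 250 bases before the RefSeq transcription start. Of 14 genes, 10 had a promoter in the table; Amh, Cyp17a1, Hsd17b1 and Star had none. Only Fdxr held a match, beside 9.4% of 27025 genes with at least 1 matching promoter and 8.28% of all 32851 promoters searched. The stretch is shown because it is the single match in the set, from GRCm38.p6 at chr11:115277064-115277150 on the minus strand, with the match (CAAGGCC on the opposite strand, first base at -141 from the start) in capitals.
Fdxr: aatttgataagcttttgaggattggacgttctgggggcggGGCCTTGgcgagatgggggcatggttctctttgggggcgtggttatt
A match is a description of these letters only, and no match says only that they are not in this window.

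Luteal genes were highest in untreated 10. Of 12 listed genes, 9 were called higher and 0 lower, with a median log2 fold change of 3.27, or 2.05 with 6 calls when untreated 10 was left out. Untreated 10 ranked first of the 3 libraries for 10 of the 12 genes and EV 36 ranked last for 11. Among the 12 members the median highest-to-lowest ratio was 4.17, beside 1.36 over 18 granulosa genes, 1.44 over 20 oocyte genes and 1.19 over the 12416 genes at a mean of at least 5 CPM in the class. These ratios were not tested.

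Akr1c18, which inactivates progesterone, was at 220 CPM in untreated 10, 14.8 CPM in EV 36 and 23.4 CPM in EV 41, while the others held 0.168 to 1.22 CPM. Lhcgr, the receptor of luteinizing hormone, was at 204, 40.1 and 46.7 CPM, against 0.138 to 1.21 CPM. Ptgfr, the receptor of prostaglandin F2 alpha, was at 234, 17.9 and 59.5 CPM, against 11.3 to 28.3 CPM. EV 36 lay within the range of the others for Ptgfr, and the call was lost without untreated 10, where the log2 fold change fell from 2.53 to 1.10. Prlr, the prolactin receptor, was at 143, 48.7 and 72.6 CPM, against 3.07 to 34.0 CPM. Its call was lost without untreated 10, at a log2 fold change of 1.63, and without EV 41, at 2.29.

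Of 12 tested gonadotropin and steroid hormone receptors 5 were called higher and 2 lower, with 3 higher without untreated 10. The 2 lower calls were 3 without untreated 7 and 1 without untreated 10, either EV library of the class, or tumour bearing 17 or 21. Among all genes, 16.3% were called higher and 10.3% lower. Esr2, the beta oestrogen receptor of granulosa cells, was at 38.6, 68.8 and 50.8 CPM, against 0 to 1.277 CPM, whereas Esr1, the alpha receptor, was at 103.8, 75.4 and 81.7 CPM, against 17.95 to 134 CPM.

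Of 23 tested genes of cholesterol synthesis and uptake, 3 were called higher and 0 lower, with a median log2 fold change of 0.72; the share called higher over all genes was 16.3%. The higher calls numbered 12 without untreated 7 (with 2 lower), 5 without tumour bearing 17, 0 without untreated 10 or EV 41, and 1 with the treatment group as a term. They numbered 10 without scaling factors and 14, with 3 lower, in the 6 libraries that shared the decimal remainder. Msmo1, a methylsterol oxidase of the late pathway, was at 114, 89.4 and 106 CPM, against 64.5 CPM in untreated 7 and 12.8 to 34.5 CPM in the other 5. Dhcr7, which makes the final product cholesterol, was at 108, 41.1 and 74.7 CPM, against 15.02 to 40.6 CPM. Untreated 10 ranked first of the 3 libraries for 18 of the 23 genes and EV 36 ranked last for 17, the same ends as in the luteal list.

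In the theca list, 8 of 10 genes were called higher and 0 lower, with a median highest-to-lowest ratio of 1.94. Insl3, the insulin-like hormone of theca cells, was at 30.3, 10.6 and 7.78 CPM, against 0 to 0.896 CPM. Aldh1a1, a retinaldehyde dehydrogenase, was at 1437.5, 876 and 1171 CPM, against 88.9 to 376 CPM. Gli1, a target of the hedgehog signal from granulosa to theca, was at 32.1, 51.0 and 36.1 CPM, against 17.8 CPM in untreated 7 and 1.79 to 3.80 CPM in the other 5.

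**Figure D3:**
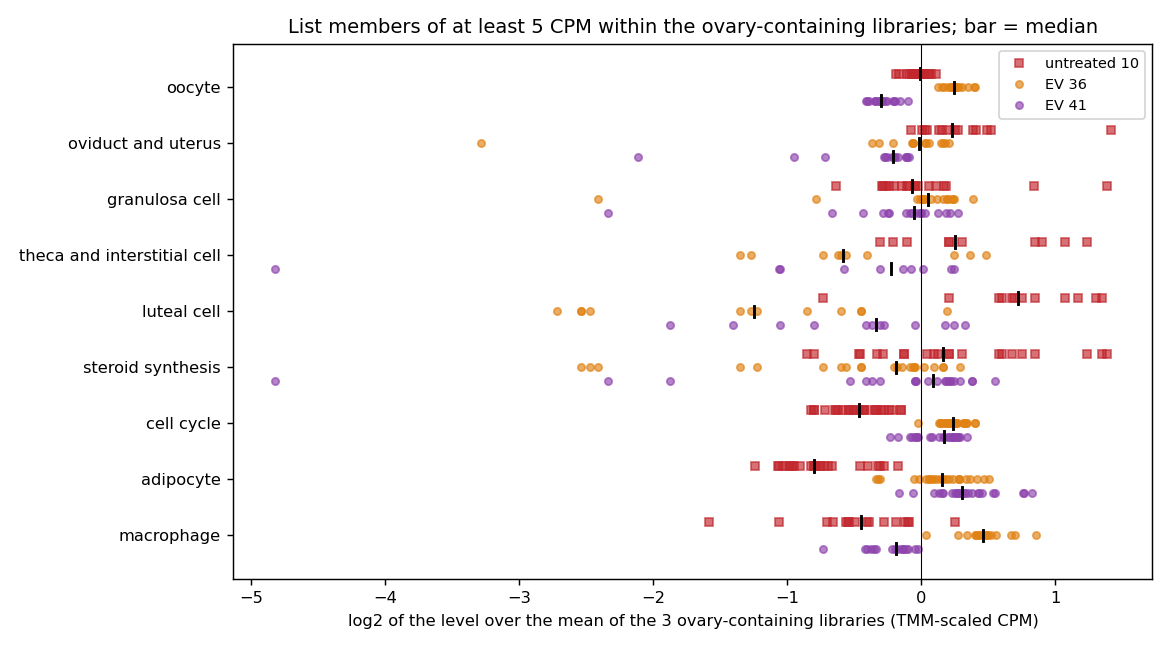
Members of 9 gene lists with a mean of at least 5 CPM in the ovary-containing libraries, plotted as log2 of the level in untreated 10 (squares), EV 36 and EV 41 (circles) over the mean of the 3, with a black bar at each median. Oocyte and granulosa genes gather near 0, luteal genes are spread with untreated 10 to the right and EV 36 to the left, and cell cycle and adipocyte genes lie lower in untreated 10.

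A search over all genes, made after the values were seen, placed the same enzymes among the least even ones. Of 277 genes called higher with a log2 fold change over 2 and a mean of at least 20 CPM in the class, the median highest-to-lowest ratio was 1.55. Cyp17a1 led, followed by Abcb1b, a drug and steroid efflux pump, at 115, 5.40 and 62.7 CPM. Sfrp4, a secreted Wnt antagonist, was at 1001, 61.7 and 153 CPM, and Wnt10b, a Wnt ligand, at 101.4, 7.98 and 29.6 CPM. Stc1, the hormone stanniocalcin, had the opposite order, at 27.5 CPM in untreated 10 and at 156 and 159 CPM in EV 36 and EV 41.

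Genes that the ovulatory surge induces in granulosa and cumulus cells were not raised as a list. Of 14 tested genes 0 were called higher and 2 lower (Btc and Adamts1), with a median log2 fold change of -0.10, and the sign of that median changed with the treatment group as a term (0.59), without scaling factors (0.42), with only untreated and EV libraries (0.04) and without tumour bearing 21 (0.15) or 22 (0.04). Ptgs2, the inducible prostaglandin synthase, was at 1.281, 0.644 and 0.566 CPM, against 0.504 to 10.0 CPM. Tnfaip6, a cumulus matrix protein, was at 0.716, 1.00 and 0.982 CPM, against 0.242 to 6.05 CPM. Pgr, the progesterone receptor, was at 55.9, 14.7 and 7.32 CPM, against 1.57 to 41.8 CPM. Ptgs2, Tnfaip6 and Pgr overlapped between the classes. Of the 14 genes, 7 had positive and 7 negative fold changes. Among all genes the shares called were 16.3% higher and 10.3% lower. Edn2 was at 0.565, 0.394 and 1.55 CPM, against 0 to 0.431 CPM, a log2 fold change of 2.65 that was not called. Adcyap1, a listed gene that did not pass the filter, had 157 counts over the ovary-containing libraries and 1 over the others. The 2 lower calls became 0 without untreated 10 or EV 36, 1 without EV 41, tumour bearing 21 or tumour bearing 22, and 4 without untreated 7, where 2 genes were called higher, and by DESeq2, where 1 was. Without EV 37, 1 was called higher.

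Oviduct transcripts accompanied the ovarian ones. Ovgp1, the secreted oviduct glycoprotein, was at 46.7 CPM in untreated 10, 40.3 CPM in EV 36 and 38.7 CPM in EV 41, while the others held 0 to 0.174 CPM. Foxj1, the master factor of motile cilia, was at 42.1, 42.6 and 38.1 CPM, against 0 to 0.280 CPM. Pax8, a factor of oviduct secretory cells, was at 12.1, 9.52 and 8.38 CPM, against 0 to 0.276 CPM. The 3 libraries held transcripts of these oviduct markers beside the ovarian ones. None of these markers overlapped between the classes. Being near 0 in the others, they passed the filter only through the 3 libraries where they are high, so this is a description.

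Of the 19 tested genes of the oviduct and uterus list, 11 were called higher and 1 lower. The lower gene was Hoxa11, a patterning factor of the uterus, at 1.47, 2.54 and 0.944 CPM, against 41.1 CPM in untreated 7 and 4.48 to 9.27 CPM in the other 5. That call was lost without untreated 10, EV 36 or EV 41, and 2 genes of the list were called lower without untreated 7. Ltf, the iron-binding lactoferrin that oestrogen induces in the mouse uterus, was at 512, 342 and 217 CPM, against 0.311 to 12.0 CPM. Epithelial genes were shared with untreated 7: Cdh1, the epithelial cadherin, was at 37.6, 35.1 and 30.0 CPM in the ovary-containing libraries, 422 CPM in untreated 7 and 0.215 to 1.22 CPM in the other 5. Cdh1 was not called, and in the list of ovarian surface and mesothelium the same library was the highest for Krt8, at 876 CPM, and Upk1b, at 1423 CPM.

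Genes of the joint list of ovarian surface and mesothelium were called in both directions. Of 15 listed genes, 2 were called higher (Aldh1a2 and Lgr5) and 4 lower (Gpm6a, Lrrn4, Muc16 and Upk3b). Over all genes the shares called were 16.3% higher and 10.3% lower, and nothing is read from these counts. Gpm6a, a membrane glycoprotein of mesothelium, was at 14.6, 18.4 and 14.99 CPM, against 30.6 to 71.6 CPM. Aldh1a2, a retinoic acid synthase, was raised instead, at 92.0, 84.6 and 117 CPM, against 13.1 to 18.3 CPM, a log2 fold change of 2.66 ± 0.14 (SE). Neither gene overlapped between the classes. The 2 higher calls became 7 without untreated 7, 1 without untreated 10 and 3 without EV 37, and the 4 lower calls became 1 without untreated 10 or EV 41.

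Proliferation genes were raised. Of 26 cell cycle genes, 23 were called higher and 0 lower, with a median log2 fold change of 3.08, and 23 or 24 were called higher when any 1 library was left out, with 1 called lower without tumour bearing 21. Mki67, the proliferation antigen, was at 34.2 CPM in untreated 10, 71.9 CPM in EV 36 and 72.8 CPM in EV 41, while the others held 1.51 to 6.05 CPM. Top2a, the topoisomerase of dividing cells, was at 41.1, 83.1 and 90.5 CPM, against 1.96 to 5.32 CPM. Mcm5, a subunit of the replicative helicase, was at 32.6, 51.5 and 40.2 CPM, against 5.44 to 6.20 CPM. Untreated 10 was the lowest of the 3 for 25 of 26 genes, the reverse of its place in the luteal list. Ccnd2, the cyclin of growing granulosa cells, was not called, at 108, 118 and 135 CPM against 106 to 281 CPM.

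**Figure D4:**
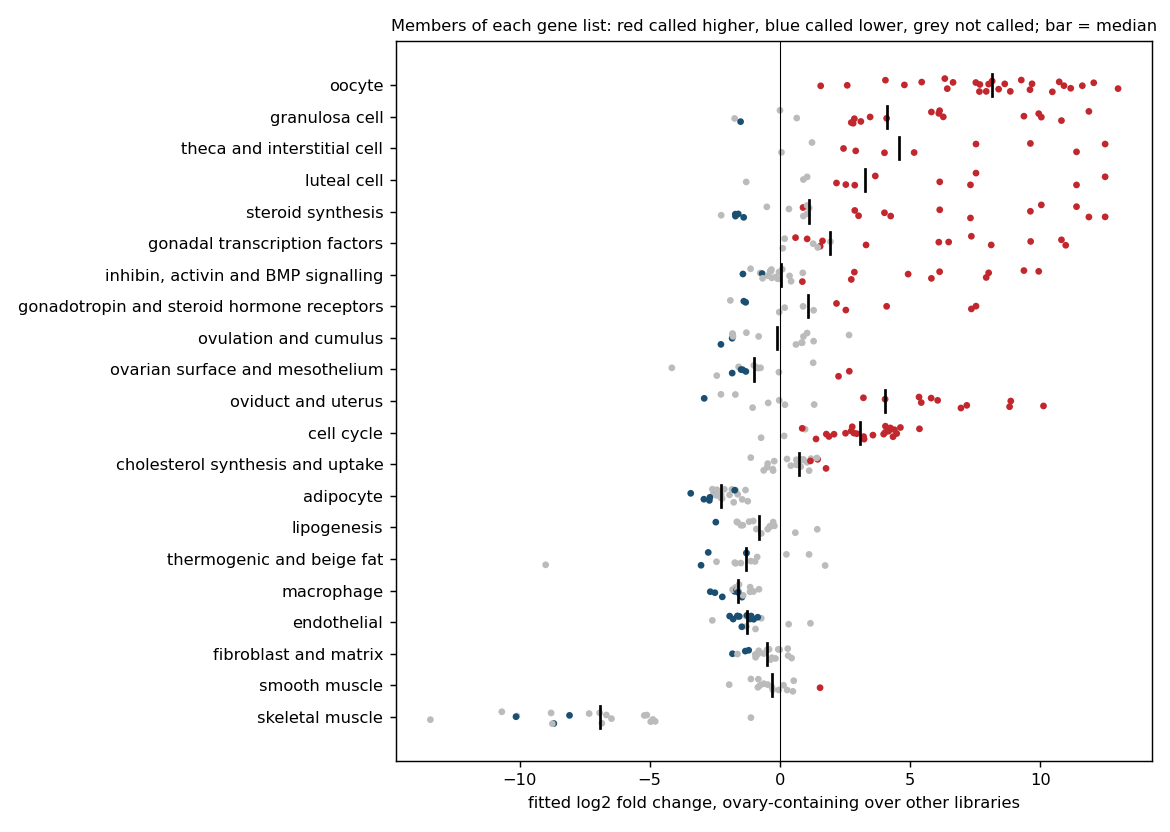
Fitted log2 fold change of ovary-containing over other libraries for each tested member of 21 gene lists, red called higher, blue called lower, grey not called, with a black bar at the list median. Oocyte genes have a median of 8.15 and cell cycle genes one of 3.08, whereas adipocyte genes have one of -2.26 and lie wholly left of 0.

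Adipocyte transcripts were lower in the ovary-containing libraries than in 5 of the 6 others. All 24 members of the adipocyte list had negative fold changes, with a median of -2.26, and 6 passed the test. Without untreated 7, which was the lowest of all 9 libraries for 21 of them, 23 passed. Pparg, the master factor of fat cells, was at 64.8, 95.7 and 75.1 CPM in untreated 10, EV 36 and EV 41, against 128 CPM in untreated 7 and 256 to 367 CPM in the other 5. Its log2 fold change was -1.74 ± 0.32 (SE), and it was called whichever library was left out. Adipoq, the hormone adiponectin, named here after its values were seen, was at 334, 726 and 632 CPM, against 131 CPM in untreated 7 and 2965 to 4418 CPM in the other 5.

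The remaining 5 adipocyte calls were Plin4, Pck1, Cd36, Aqp7 and Dgat1. Pck1, which makes glycerol for triglyceride, was at 201, 598 and 461 CPM, against 220 CPM in untreated 7 and 3678 to 7109 CPM in the other 5. The count of adipocyte calls was 3 without untreated 4, EV 37 or any 1 tumour-bearing library, and 1 without untreated 10, EV 36 or EV 41. It was 3 without scaling factors, 1 with the treatment group as a term and 18 by DESeq2. Untreated 10 was the lowest of the 3 ovary-containing libraries for 24 of 24 members, with a summed level of 10842 CPM for the list where EV 36 had 22999 CPM and EV 41 had 24797 CPM. The sum was 5126 CPM in untreated 7 and 89624 to 144918 CPM in the other 5.

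**Figure D5:**
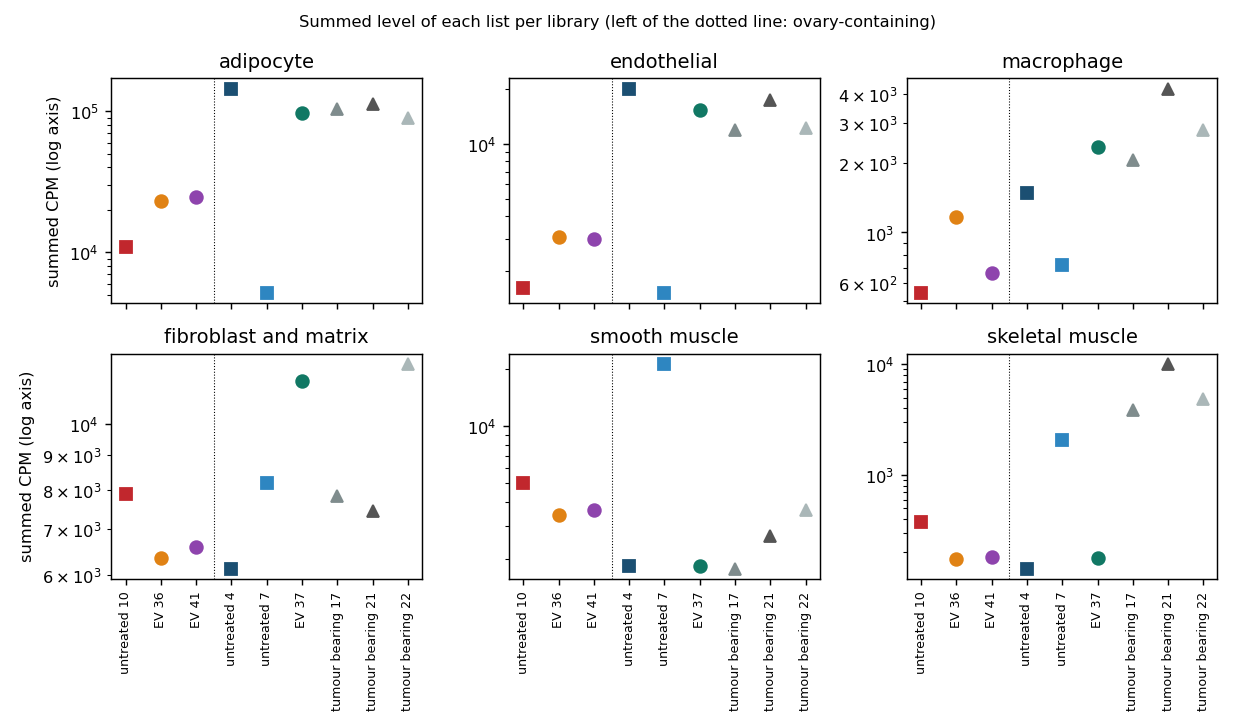
Summed TMM-scaled CPM of 6 gene lists in each library on log axes, with the ovary-containing libraries left of the dotted line, squares untreated, circles EV, triangles tumour bearing. The adipocyte sum of the 3 ovary-containing libraries lies between untreated 7, at 5126 CPM, and the other 5; the adipocyte gene Fabp4 is a member of the endothelial list too and dominates that sum.

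Other cell types of the fat pad had negative medians too. Of 18 endothelial genes 11 were called lower and 0 higher, with a median log2 fold change of -1.28. Pecam1, the endothelial adhesion molecule, was at 66.0, 89.4 and 86.5 CPM, against 98.5 to 385 CPM, and the classes did not overlap. Lyve1, a hyaluronan receptor of lymphatic vessels and resident macrophages, was at 20.4, 27.5 and 17.1 CPM, against 35.3 to 93.2 CPM, and was called whichever library was left out. The endothelial count was 16 without untreated 7 and 1 without untreated 10 or EV 41. It was 2 without EV 36, 1 with the treatment group as a term, 5 without tumour bearing 17 or 21, and 7 without untreated 4, EV 37 or tumour bearing 22. The Pecam1 call was lost without untreated 10, EV 36 or EV 41, at log2 fold changes of -1.44 to -1.64.

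Of 18 macrophage genes 7 were called lower and 0 higher. Timd4, a receptor of long-lived resident macrophages, was at 2.03, 1.72 and 1.51 CPM, against 3.18 to 15.2 CPM. Mrc1, the mannose receptor, was at 26.1, 54.6 and 33.1 CPM, against 77.9 to 312 CPM, with its call lost without untreated 10 or EV 41, at -2.01 and -2.13. The macrophage count was 14 without untreated 7, 3 without untreated 10, 2 without EV 41 and 11 by DESeq2. NSG mice lack mature lymphocytes, and 12 of 16 lymphocyte genes did not pass the filter, with Cd3g at 0 counts in every library.

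Fibroblast genes moved less, with 3 of 19 called lower, among them Dcn, the collagen-binding decorin, at 747, 904 and 831 CPM against 1478 to 2499.8 CPM. That call was lost without untreated 10, at a log2 fold change of -1.13. The fibroblast count was 1 without untreated 10 and 5 without untreated 7, and 2 without EV 41. The share called lower over all genes was 10.3%. The 13 mitochondrial transcripts all had negative fold changes, with a median of -1.22, and 0 were called, against 12 without untreated 7 and 3 by DESeq2.

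Smooth muscle transcripts depended on untreated 7. Of 15 listed genes 1 was called higher and 0 lower, with a median log2 fold change of -0.31 that turned to 1.32, with 11 called higher and 1 lower, without that library, to 0.33 with the treatment group as a term and to 0.01 without scaling factors. Myh11, the smooth muscle myosin, was at 739 CPM in untreated 10, 552 CPM in EV 36 and 569 CPM in EV 41, while untreated 7 stood at 5376 CPM and the other 5 at 148 to 563 CPM. The summed list was at 5027, 3411 and 3640 CPM in the ovary-containing libraries, at 21258 CPM in untreated 7 and at 1781 to 3639 CPM in the other 5. The single call, Pln, was lost without any 1 library of the class or without tumour bearing 22, at 1.31 to 1.72. The share called higher over all genes was 16.3%.

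The calls of the remaining fat pad lists are given beside the shares over all genes, 16.3% higher and 10.3% lower. Of 16 lipogenesis genes 0 were called higher and 1 lower (0 without any 1 library other than untreated 7, and 7 without that, with 1 called higher there and without tumour bearing 17), and of 15 tested thermogenic genes 0 higher and 3 lower (8 without untreated 7, 0 without untreated 10 or EV 36, 1 without EV 41, and 2 without EV 37, tumour bearing 17 or tumour bearing 22). Ebf2, a factor of beige adipocyte precursors, was at 2.94, 5.55 and 6.61 CPM, against 4.90 CPM in untreated 7 and 30.5 to 46.9 CPM in the other 5. Of 10 tested nerve and Schwann cell genes 1 was called higher (Th; 0 without EV 41 and 2 without untreated 7) and 3 lower, with 1 lower without untreated 10 or tumour bearing 21, 0 without EV 36 or EV 41, and 2 without untreated 4, EV 37, tumour bearing 17 or tumour bearing 22. Of 6 erythroid genes 2 were called lower, with 6 without untreated 7, 0 without EV 36 or EV 41 and 1 without any other single library. Of 9 neutrophil, 4 lymphocyte and 7 mammary epithelium genes tested, 0 were called. Without untreated 7, 1 neutrophil and 2 lymphocyte genes were called lower and 2 of 6 mammary epithelium genes higher, and without tumour bearing 21, 1 neutrophil gene was called higher. By DESeq2 the lower calls were 2 for lipogenesis, 6 for thermogenic, 4 for erythroid, 1 for neutrophil and 1 for lymphocyte genes.

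Some of the largest decreases came from transcripts that were high in only part of the 6 others. Tnnc2, a troponin of fast skeletal muscle, was at 0.0377, 0.143 and 0.151 CPM in the ovary-containing libraries and at 0.280 to 0.388 CPM in untreated 4, untreated 7 and EV 37, but at 160 to 408 CPM in the tumour-bearing libraries. Myh2, a skeletal myosin, showed the same division, at 0.286 to 0.415 CPM in the class, 0.504 to 1.62 CPM in untreated 4, untreated 7 and EV 37, and 152 to 483 CPM in the tumour-bearing libraries. With the treatment group as a term the log2 fold change of Tnnc2 went from -10.14 to -1.89 and that of Myh2 from -8.68 to -1.27, and neither was called. Both calls were lost without untreated 10, EV 36 or EV 41, with log2 fold changes of -8.56 to -10.40, and that of Myh2 also without any 1 tumour-bearing library, at -7.78 to -8.68. Rpl3l, Acta1, Smyd1 and Eno3, further genes of striated muscle among the 15 largest decreases, were likewise highest in the tumour-bearing libraries.

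Pitx1, a hindlimb patterning factor, and Crybg1 were highest in untreated 7, at 51.4 and 158 CPM. Others were low in all 3 ovary-containing libraries against each of the 6. Svep1, an extracellular matrix protein, was at 13.7, 18.3 and 18.2 CPM, against 99.7 to 273 CPM, a log2 fold change of -3.15 ± 0.36 (SE). Acaa1b, a peroxisomal thiolase, was at 7.99, 25.9 and 21.9 CPM, against 130 to 223 CPM, a log2 fold change of -3.14 ± 0.42 (SE). Gbp10, a guanylate-binding protein, was at 0.791, 1.18 and 0.868 CPM, against 3.31 to 23.9 CPM. Svep1, Acaa1b and Gbp10 stayed called whichever library was left out. Nr3c1, the glucocorticoid receptor, did so too, at 49.9, 53.1 and 62.9 CPM against 109 to 181 CPM.

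Among the 18 genes that the study names for its own question, 0 were called higher and 2 lower in the ovary contrast, against 2 higher and 7 lower without untreated 7 and 0 higher and 6 lower by DESeq2. Over all genes the shares called were 16.3% higher and 10.3% lower, and nothing is read from the 2 calls. Prdm16, a factor of thermogenic fat, was at 3.39, 6.87 and 7.59 CPM in untreated 10, EV 36 and EV 41, against 7.79 to 22.5 CPM, and Ndufv1, a subunit of respiratory complex I, at 94.5, 100.1 and 123 CPM, against 87.2 to 286 CPM. The calls of Prdm16 and Ndufv1 were lost in most leave-outs: that of Prdm16 without any 1 library other than untreated 4, untreated 7 or tumour bearing 21, at -1.01 to -1.51, and that of Ndufv1 without any 1 library other than untreated 7, at -1.03 to -1.23. Vhl was at 26.9, 25.9 and 24.4 CPM, against 22.5 to 35.3 CPM, and Lep, the hormone leptin, at 28.1, 39.0 and 37.2 CPM, against 2.24 to 713 CPM. Ucp1 was at 0.640 and 0.930 CPM in untreated 10 and EV 36 but at 136 CPM in EV 41, so that it did not follow the class.

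The ovary contrast was then fitted within treatment groups. Within untreated mice, untreated 10 against untreated 4 and 7 gave 180 called genes (1.01%), 165 higher and 15 lower. Within EV mice, EV 36 and EV 41 against EV 37 gave 2 (0.0112%), both higher. The difference between these contrasts was called for 0 genes by edgeR (0%), with 262 at an unadjusted p under 0.05, in a design where the spread of single libraries was taken from the other groups. These counts moved with single libraries. Without untreated 7 they were 2709, 2266 and 0, without untreated 4 they were 1700, 2280 and 585, and without EV 36 or EV 41 they were 0 throughout. Without tumour bearing 17, 21 or 22 the untreated count was 11, 25 or 23, the EV count 0, 1 or 0 and the difference 0.

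Finally, the treatment groups were compared with a term for ovary content. EV against untreated called 0 genes by edgeR both with the term (0%, 202 genes at an unadjusted p under 0.05) and without it (197 genes). Tumour bearing against untreated called 57 genes with the term (0.32%), all higher, and 39 without it. The 57 calls fell to 36 without untreated 10 or EV 37, 34 without EV 36, 33 without EV 41, and 24, 16 and 14 without tumour bearing 17, 21 and 22, and rose to 86 without untreated 7.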

How the data were processed

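eWAT RNA of 9 female NSG mice was sequenced. The authors' stated chain was SeqPrep and Sickle for trimming, HISAT2 for alignment, StringTie for assembly and RSEM for quantification. The submitters' notes name Bowtie 0.12.2 and builds mm8 and mm9, and the sources used here name no annotation. The deposited expected counts (estimated counts of 53700 gene IDs) were rounded; the deposited TPM columns, used as a score by their decimals only, served to look for batches. In 14770 genes, libraries of 1 set shared the remainder past the second decimal in at least 99.9% of genes and libraries of different sets in at most 20.1%, within 0.001 of a unit of the second decimal. IDs sharing a symbol (135) were left out of the fits, since EV counts repeated across them.

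edgeR 4.0.16 in R 4.3.3 was used: filterByExpr by class (17822 genes kept), TMM factors (0.756 to 1.32), the quasi-likelihood test and Benjamini-Hochberg adjustment over all genes. Further fits used 1 mean per group and class, or group and class as added terms. The biological coefficient of variation was 55.1%. SEs were worked back from the F statistic. A ratio to 1 to 3 counts has an exact 95% interval; 0 counts gives a bound at 3 counts per library. DESeq2 1.42.0, RLE factors, no factors, no filter, rounding down, kept shared symbols, subsets and leave-outs were alternatives. Only the fit by class alone was tested on simulated data. Promoters were from RefSeq (GRCm38.p6), since the files' build is unclear.

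The members, and the 28 gene lists (433 genes, from general knowledge except the genes the study names), were chosen with earlier results of these data known. Named were Inha, Cyp11a1 and Amh, the 15 largest fold changes per direction (called, mean of at least 5 CPM, no overlap, no predicted symbols), up to 6 members per list by p, and defining markers near 0. Other members named, such as Smad4, Kitl, Inhbb, Insl3, Gli1, Ptgs2, Pgr, Hoxa11, Ltf, Pax8, Mki67, Adipoq, Tspo, Esr1, Myh11, Ccnd2, Vhl, Lep, Ucp1, Cdh1, Krt8 and Upk1b, and genes of no list (Abcb1b, Wnt10b, Stc1), were chosen after their values were seen. Nothing in the labels names the mice as littermates or cage mates. The paper states that mice were kept singly in tumour inoculation experiments and in groups otherwise, so housing may differ between treatment groups. The p-values rest on the spread between these mice, in classes set by Inha of the same libraries. Intervals and floors cover counting error only.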

Additional observations from a re-analysis of the deposited data

Results flagged for a closer look

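Among the 6 libraries without abundant ovary transcripts, 31 sets of values were examined for a single library standing apart. A set was marked when Dixon's ratio lay above its 95% critical value, and 6 were marked. Chance marks about 1 in 20 of independent sets. These sets share libraries and some genes, so no excess over chance is read from the 6 marked sets. In 4 of them the library was untreated 7. Its mean log2 CPM over the adipocyte list was 6.55, below the other 5. Its mean log2 CPM was 9.41 over the smooth muscle list, 4.79 over the mammary epithelium list and 4.95 over the genes that the study names; the first pair lay above the other 5 and the last lay below. Tumour bearing 17 was lowest for the oocyte list, at a mean log2 CPM of -0.65, a level at which most genes have few or no counts. Untreated 4 was highest of the 6 for Cyp11a1, at 2.46 CPM, which is far below the 734 CPM or more of the ovary-containing libraries.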

How the results depend on the processing

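Of 111 called genes named by the rule, 0 changed direction under any alternative, 60 stayed called whichever library was left out (51 of 59 higher, 9 of 52 lower), and 38 lost the call with the treatment group as a term. Counts of genes called higher and lower in the ovary contrast were 5233 and 503 without scaling factors, 1444 and 443 with the treatment group as a term (76.5% higher), 4995 and 4305 in the 6 libraries of 1 inferred batch, 1668 and 630 in untreated and EV libraries (72.6% higher), and 3574 and 3231 by DESeq2, which tested 21749 genes. Leaving out 1 library in the fit by class alone gave 1922 to 4916 higher and 425 to 3985 lower, with 81.9%, 77.9% and 79.0% higher without untreated 10, EV 36 or EV 41. The 1887 calls made with the treatment group as a term depended strongly on single libraries. Only 2 remained once untreated 10 was dropped, and 238 once EV 37 was. Dropping EV 41 left 392 calls, dropping EV 36 left 415, and dropping untreated 7 raised them to 6483. Dropping any other library gave 1180 to 1966. Within untreated mice the count was 520 without scaling factors and 494 without the filter, and 0 to 2709 in leave-outs; within EV mice it was 12 and 98, and 0 to 2280; their difference ran from 0 to 585. EV against untreated called 1 gene without the filter and 1 with shared symbols kept; tumour bearing against untreated called 89 without the filter and 14 to 86 in leave-outs. The cause of these shifts was not tested. The within-group fits could not be made without untreated 10 or without EV 37. RLE factors, rounding down and kept shared symbols left the ovary counts within 1.5 times. No paired analysis was possible because the groups share no replicate numbers. With 3 libraries in the class and classes set by 1 transcript of the same libraries, calls are descriptive; genes of few counts are limited by depth.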

Other observations

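Transcripts of catecholamine synthesis were highest in a single ovary-containing library. Th, tyrosine hydroxylase, was at 8.53 CPM in EV 41, at 0.866 CPM in untreated 10, at 1.04 CPM in EV 36 and at 0 to 0.289 CPM in the others. Dbh, dopamine beta-hydroxylase, which did not pass the filter, was at 17.3 CPM in EV 41, against 0 to 0.380 CPM in the other 8 libraries. Adcyap1, the neuropeptide PACAP, was at 4.91 CPM in EV 41, 0.339 CPM in untreated 10 and 0.644 CPM in EV 36, and at 0 to 0.0345 CPM in the others. Dbh was looked up after its count had been seen.

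Prss35, a serine protease, and Mgarp, a mitochondrial protein, were both highest in EV 41, at 640 and 558 CPM, against 271 and 323 CPM in untreated 10 and 241 and 179 CPM in EV 36. Akr1cl, an aldo-keto reductase, and Acsbg1, a fatty acyl-CoA synthetase, went with the class, at 1515, 1303 and 1127 CPM and at 897, 555 and 671 CPM in untreated 10, EV 36 and EV 41. In the others they were at 0 to 1.73 CPM and 0.752 to 5.90 CPM. These genes were chosen after their values were seen.

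Untreated 7 carried transcripts of uroplakins, the plaque proteins of the bladder lining. Upk1a, Upk2 and Upk3a were at 2224, 1011 and 1626 CPM there. In EV 36 they were at 26.5, 10.9 and 22.1 CPM, and in the other 7 libraries at 0 to 13.0 CPM. Krt5, a basal keratin, was at 812 CPM in untreated 7 and 41.6 CPM in EV 36, against 0 to 4.98 CPM in the other 7. Whether these transcripts and those of smooth muscle in untreated 7 came with pieces of neighbouring tissue was not tested.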
